A study of Mus musculus with 8 samples.

Results

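Malat1 and Neat1 are long nuclear RNAs made from neighbouring genes on the minus strand of mouse chromosome 19. Their contacts with the proteins MBD5 and MBD6 were examined in mouse embryonic stem (mES) cells by cross-linking and immunoprecipitation followed by sequencing (CLIP–seq). A deposited peak was taken as a member when its midpoint lay in the body of either gene on the same strand. In all, 29 of 29555 peaks in the 4 CLIP libraries met this rule, 27 on Malat1 and 2 on Neat1.

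The 2 Flag-MBD5 and 2 Flag-MBD6 CLIP libraries came from wild-type mES cells that stably overexpressed the Flag-tagged human coding sequence of MBD5 or MBD6, delivered by lentivirus and kept under hygromycin. Input samples, 2 for each protein, were not used here as samples. The cells grew with LIF, CHIR99021 and PD0325901 and were passaged on gelatin to remove feeders; the labels also list embryos as the tissue. The labelled antibody and the methods name anti-Flag, whereas the labels' extraction text names an antibody to MBD6. The bait was therefore a tagged, overexpressed human protein in mouse cells, and no CLIP library from untagged cells was analysed here. Of 10 pluripotency transcripts, 8 had a peak in at least 1 library, 3 in both MBD5 libraries and 6 in both MBD6 libraries. Peaks in all 4 libraries were found for 3, Sox2 among them. Over all annotated protein-coding genes, expressed or not, these shares were 19.4%, 8.13%, 14.2% and 7.81%. Of 6 fibroblast transcripts, 0 had a peak in any library, a count that says little beside a share of 19.4%.

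Malat1 RNA gathers in nuclear speckles, bodies rich in splicing factors. Neat1 RNA is the scaffold of paraspeckles, and its short and long isoforms share a 5′ end, the long one being needed to build the body. RNase P, the enzyme that trims tRNA 5′ ends, also cuts the 3′ ends of Malat1 and of long Neat1. MBD5 and MBD6 carry a methyl-CpG-binding domain and join the PR-DUB complex, which removes ubiquitin from histone H2A.

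Reads at each summit, the highest point of a peak, were recovered from the deposited fold enrichment and p, which fix the read number and the background rate. The libraries held 5362 and 5388 peaks for MBD5 and 9218 and 9587 for MBD6. Estimated depth was 478796 and 500149 reads for MBD5 and 983928 and 1111748 for MBD6, so the MBD6 estimate was 2.14 times as high. It counts the reads kept for peak calling, and the number of reads sequenced is not known from the peak lists. Libraries of the same protein differed by less than sampling noise (chi-square per degree of freedom 0.496 for MBD5 and 0.414 for MBD6), and each protein was counted as 1 sample. The proteins were therefore compared without a test, and intervals cover counting error only.

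Malat1 (ENSMUSG00000092341.3) spans chr19:5795690-5802672 (mm10, minus strand), and its main isoform is a single exon of 6983 nt. Neat1 (ENSMUSG00000092274.3) spans chr19:5824708-5845478, 20771 nt in its long isoform, and lies 22035 bp away. The strongest MBD5 and MBD6 signal on Malat1 fell on a pair of neighbouring stretches, shown here from the MBD5 peak starts, with CpG in capitals. They are printed because they differ in base content although both were occupied in every library.

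Malat1 site 1, chr19:5801747-5801946, minus strand, nt 727 to 926: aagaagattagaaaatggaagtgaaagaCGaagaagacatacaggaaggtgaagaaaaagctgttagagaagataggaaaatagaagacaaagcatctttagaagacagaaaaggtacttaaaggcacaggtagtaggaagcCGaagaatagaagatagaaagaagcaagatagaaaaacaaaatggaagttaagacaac
Malat1 site 2, chr19:5801156-5801355, minus strand, nt 1318 to 1517: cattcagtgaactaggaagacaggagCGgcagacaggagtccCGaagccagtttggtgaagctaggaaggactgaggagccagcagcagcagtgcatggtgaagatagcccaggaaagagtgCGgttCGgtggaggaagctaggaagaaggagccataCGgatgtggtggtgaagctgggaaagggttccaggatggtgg

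The site 1 stretch is 52% A and 78.5% purine, and 99.9% of all stretches of 200 nt along Malat1 held less A. The site 2 stretch is 29% A and 69% purine and holds 5 CpG, against a median of 2 over all such stretches. Purine content was above that of 95.4% of stretches at site 2 and of 99.8% at site 1. These are descriptions of 2 stretches of 1 transcript.

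Malat1 peaks numbered 4 and 4 in the MBD5 libraries and 10 and 9 in the MBD6 libraries. Merged over libraries they formed 10 sites, numbered from the 5′ end, that covered 3450 bases or 49.4% of the transcript. Of these, 3 sites (1, 2 and 9) had a peak in all 4 libraries, 2 (4 and 8) in 1 MBD5 and both MBD6 libraries, 4 (5, 6, 7 and 10) in both MBD6 libraries only and 1 (site 3) in a single MBD6 library. No site was found with MBD5 alone, and no peak lay on the opposite strand of either gene. Peaks covered 20.3% and 22.2% of the transcript for MBD5 and 44.7% and 46.1% for MBD6.

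**Figure D1:**
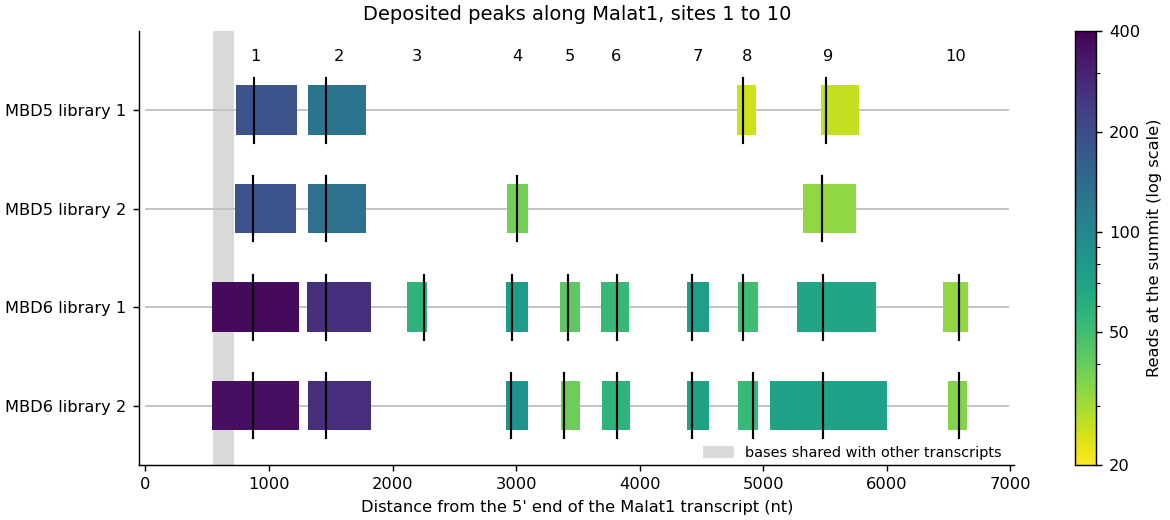
Deposited peaks along the Malat1 transcript (x axis, nt from the 5′ end) in each of the 4 CLIP libraries (rows), coloured by reads at the summit on a log scale; black ticks are summits and grey marks bases shared with other transcripts. The 10 sites include 3 with a peak in every library, and the darkest bars, at sites 1 and 2, lie nearest the 5′ end.

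Counted as regions found in both libraries of a protein, Malat1 held 3 MBD5 regions and 9 MBD6 regions. All 3 MBD5 regions were overlapped by an MBD6 region, against 90.0% of MBD5 regions over all transcripts. Conversely, 3 of 9 MBD6 regions (33.3%) were overlapped by an MBD5 region, against 47.7% over all transcripts. When a peak of either MBD5 library was enough, 5 of 9 were overlapped, against 66.7%. With the 5362 strongest peaks of each library, 3 of 6 MBD6 regions were overlapped, against 66.4% over all transcripts.

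Site 1 (chr19:5801428-5802132, nt 541 to 1245) was the highest on Malat1 for both proteins. Its summit held 189 and 187 reads in the MBD5 libraries and 370 and 360 in the MBD6 libraries. Scaled to 1000000 estimated reads (RPM), these were 395 and 374 for MBD5 and 376 and 324 for MBD6, so the ranges of the proteins overlapped. The 4 summits lay within 4 nt of each other, at nt 871 to 875. By deposited p, this peak ranked 18 and 19 in the MBD5 libraries and 3 and 4 in the MBD6 libraries.

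The MBD6 peaks of site 1 began at nt 541, upstream of the MBD5 peaks, which began at nt 733 and 727. Within this MBD6-only shoulder, nt 556 to 706 (chr19:5801967-5802117) held 126 words of 25 nt that also occur in transcripts of 1589 other genes. The authors' mapping accepted reads with up to 10 placements, and the part of such reads in the shoulder was not tested. The summits lie outside these bases. The annotated isoform Malat1-203 has an exon under site 1.

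Site 2 (chr19:5800847-5801362, nt 1311 to 1826) was the next highest. It held 127 and 132 reads for MBD5 and 263 and 270 for MBD6, or 265, 264, 267 and 243 RPM. Summits lay at nt 1459 to 1462. Sites 1 and 2 together held 86.1% (95% Wilson interval 82.2 to 89.3) and 81.8% (77.7 to 85.3) of the reads summed over Malat1 summits for MBD5, and 58.1% (55.2 to 61.0) and 60.4% (57.4 to 63.3) for MBD6. These sums run over called peaks only, 4 in each MBD5 library and 10 and 9 in the MBD6 libraries. For MBD6 part of the sum thus lay at sites with no MBD5 peak, so the shares do not compare the proteins. Reads at uncalled sites are not covered by the intervals.

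Site 9 (chr19:5796668-5797621, nt 5052 to 6005) was the remaining site with a peak in every library. It held 26 and 33 reads for MBD5 and 68 and 71 for MBD6. By mean RPM its place among Malat1 sites was 4 for MBD5 and 5 for MBD6. It overlaps the first exons of the shorter 3′ isoforms Malat1-202 and Malat1-204. Its width varied most, from 303 bases in an MBD5 library to 954 in an MBD6 library, while its summits stayed between nt 5474 and 5508.

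Site 4 (chr19:5799578-5799752, nt 2921 to 3095) held 38 reads in MBD5 library 2, with no peak in library 1, and 76 and 85 reads for MBD6. Site 8 (chr19:5797716-5797886, nt 4787 to 4957) showed the reverse, with 25 reads in MBD5 library 1, no peak in library 2, and 50 and 53 reads for MBD6. At these sites the MBD5 libraries thus differed in whether a peak was called.

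The remaining 5 sites had no MBD5 peak. Site 7 (nt 4380 to 4563) was the highest of them with 75 and 72 MBD6 reads, and site 6 (nt 3690 to 3920) held 54 and 58. Site 5 (nt 3359 to 3515) held 42 and 39, and site 10 (nt 6458 to 6655), the nearest to the 3′ end, held 33 and 35. Site 3 (nt 2119 to 2277) held 58 reads in MBD6 library 1 and had no peak in library 2. In MBD6 the order by mean RPM was site 1, 2, 4, 7, 9, 3, 6, 8, 5 and 10. Sites 1 and 2 were separate from each other and from site 4 in their exact 95% Poisson intervals, and from site 4 down each neighbour overlapped the one before it.

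**Figure D2:**
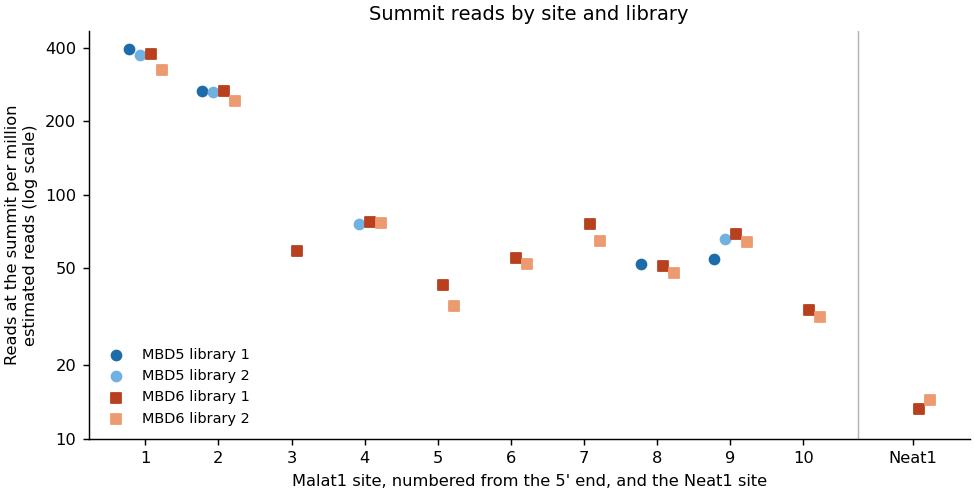
Reads at the summit per 1000000 estimated reads (RPM, log scale) at each Malat1 site and at the Neat1 site, one point per library with a deposited peak (circles MBD5, squares MBD6). At sites 1 and 2 the 4 libraries lie between 243 and 395, and every other Malat1 site lies at or below 77.2.

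A site with no deposited peak may still hold reads. If each missing site had held the same RPM as in the libraries with a peak, and the same background scaled to depth, the expected reads would have been 1.30 to 1.82 times the number needed to reach the weakest deposited p, over the 13 missing Malat1 peaks. At site 7 this gave 33.8 and 35.3 expected reads against 19 and 20 needed in the MBD5 libraries. The same held for site 3 in MBD6 library 2, with 65.5 expected and 36 needed, a library of the protein that had the peak. The RPM came only from libraries in which the site passed as a peak, which can set the expected reads too high. The background of the missing sites in their own library is not in the peak lists, and whether it differed was not tested.

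The background rate, the reads expected at a summit from the control that the peak caller used, was high on Malat1. It was 9.97 to 22.2 times the library's lowest rate at the Malat1 peaks of MBD5 and 7.51 to 30.3 times at those of MBD6. The share of all peaks with a higher rate than Malat1's median was 4.46% and 3.60% for MBD5 and at most 1.17% for MBD6. The peak lists hold no direct measure of how much Malat1 RNA the cells made. The background rate is at most an indirect one, because the source of the control is not given. More RNA and more binding per RNA therefore cannot be told apart from summit reads alone.

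Every rate above the library's lowest, those of all Malat1 and Neat1 peaks included, was a whole multiple of the worth of 1 control read in its window, which gave the control reads behind these peaks. Which library served as control is not given in the sources used here. At site 1 the window of 150 bp held 7 and 9 control reads for MBD5 and 14 and 15 for MBD6, and fold enrichment was 50.7, 39.3, 47.4 and 39.4. At site 2 it held 13 and 12 for MBD5 and 22 and 29 for MBD6, and fold enrichment was 21.0, 22.0, 22.5 and 16.2. Site 2 thus had fewer CLIP reads and more control reads than site 1 in every library. At site 4 the MBD6 controls held 29 and 33 reads in the same window, and fold enrichment was 5.08 and 4.54. In MBD5 library 2, the only MBD5 library with a peak there, fold enrichment was 10.7. The background rate at that peak was 9.97 times the library's lowest, against 27.0 and 30.3 times for MBD6. Fold enrichment at sites 3 to 10 was between 3.73 and 10.7.

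**Figure D3:**
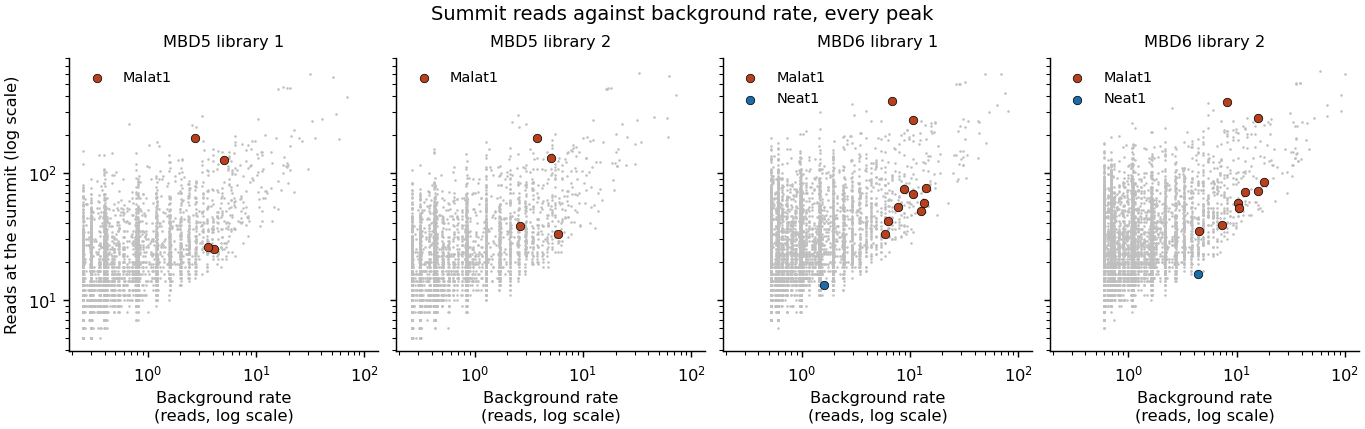
Reads at the summit against the background rate for every deposited peak (grey), one panel per CLIP library and both axes on a log scale, with Malat1 peaks in red and Neat1 peaks in blue. Malat1 peaks lie toward the high background rates, and those of sites 1 and 2 rise above the rest, up to 370 reads.

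Per estimated depth, the ratio of MBD6 to MBD5 reads at the 3 Malat1 sites with a peak in every library was 0.911 (95% exact binomial interval 0.759 to 1.09) at site 1, 0.964 (0.772 to 1.19) at site 2 and 1.11 (0.701 to 1.73) at site 9. These 3 intervals include 1, and they allow differences of the sizes given. At sites 4 and 8 it was 1.01 (0.660 to 1.49) and 0.943 (0.592 to 1.63) over the MBD5 library with a peak alone. Leaving out the MBD5 library with no peak can set the MBD5 mean too high, so these values do not compare the proteins. Over the 3566 sites with a peak in every library the median ratio was 0.792, with 0.439 to 1.50 between the 5th and 95th percentiles. Sites 1, 2 and 9 lay above 64.3%, 69.8% and 79.6% of those sites. The authors kept at most 5 reads per position, and the part of that limit in the ratios was not tested.

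**Figure D4:**
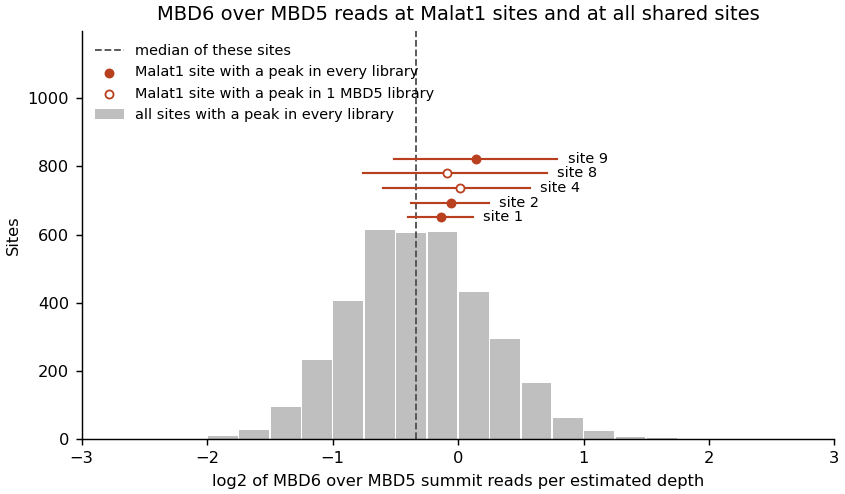
Number of sites (y axis) by log2 of MBD6 over MBD5 summit reads per estimated depth (x axis) for the 3566 sites with a peak in every library, with the median ratio of 0.792 as a dashed line and Malat1 sites as red points with 95% counting intervals, stacked for legibility. Filled points are sites 1, 2 and 9, which lie to the right of the median with intervals that include equal reads; open points are sites 4 and 8, which rest on 1 MBD5 library each.

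The immunoprecipitated RNA was cut with RNase T1, an enzyme that cuts after G. The base before each peak's 5′ end was read from the GENCODE transcript. It was G for 17 of 27 Malat1 peaks, against 75.3% of 27525 exonic peaks and 25.4% of Malat1 bases. The count was 4 of 8 for MBD5 and 13 of 19 for MBD6, and C stood there in 7 peaks. The next examples show the end of the MBD5 and MBD6 peaks of site 1, an MBD6-only site, and both Neat1 peaks, each with 9 bases, the base before the end in capitals and the first 30 bases of the peak.

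Site 1, MBD5 library 1, chr19:5801911-5801950: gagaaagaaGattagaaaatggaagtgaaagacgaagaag
Site 1, both MBD6 libraries, chr19:5802103-5802142: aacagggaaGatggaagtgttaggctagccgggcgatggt
Site 7, MBD6 library 1, chr19:5798264-5798303: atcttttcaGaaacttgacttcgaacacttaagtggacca
Neat1, MBD6 library 1, chr19:5840723-5840762: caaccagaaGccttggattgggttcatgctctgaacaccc
Neat1, MBD6 library 2, chr19:5840856-5840895: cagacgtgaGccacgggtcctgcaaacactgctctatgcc

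Over these first 30 bases Malat1 peaks were 32.0% A and 23.5% T and held 21.0 CpG per kb. Exonic peaks of the 4 libraries were 36.5% to 38.0% A and 15.5% to 15.9% T, with 30.3 to 33.9 CpG per kb. The whole Malat1 transcript is 28.6% A and 28.9% T with 13.2 CpG per kb. For A, T and CpG the values of its peaks thus lay between those of the transcript and of exonic peaks. For G and C they did not. Malat1 peaks were 29.0% G, against 25.4% in the transcript and 25.6% to 26.2% in exonic peaks. They were 15.6% C, against 17.1% and 20.3% to 22.0%. Libraries share sites, and the peaks are not independent.

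CpG content also varied between Malat1 sites. Bases inside sites held 52 CpG, or 15.1 per kb, and bases outside held 40, or 11.3 per kb. Site 2 held 16 CpG (31.0 per kb) and site 6 held 6 (26.0 per kb), whereas site 4 held 0 in 175 bases and site 8 held 1. Site 1, the highest in reads, held 9, or 12.8 per kb, near the 13.2 per kb of the whole transcript. The order of sites by CpG therefore differed from the order by reads. CpG content describes the sequence only. The peak lists hold no measure of RNA methylation, and what the proteins recognize was not tested.

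Neat1 had no MBD5 peak and 1 peak in each MBD6 library, which merged into 1 site of 321 bases (chr19:5840565-5840885, nt 4594 to 4914). The summits held 13 and 16 reads, or 13.2 and 14.4 RPM. Both peaks were among the weakest of their library, ranking 8959 of 9218 and 9586 of 9587 by p, with fold enrichment of 5.36 and 3.18. The summits lay apart, at nt 4869 and 4602, and the second peak was 321 bases wide against 185 for the first. At equal RPM the MBD5 libraries would have been expected to hold 6.61 and 6.90 reads. These were below the 9 needed at the background scaled from the MBD6 libraries. The expected reads are means without counting error, and the cause of the missing MBD5 peaks was not tested.

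The Neat1 site lies beyond the short isoform Neat1-202, which ends at nt 3172, and within the annotated isoforms only in the long one, Neat1-201. It held 14 CpG, 43.6 per kb, against 15.0 per kb in the rest of Neat1. The other 669 genes with the same peak counts as Neat1 (0, 0, 1 and 1) compare with 4430 and 4534 genes with a peak in the MBD6 libraries.

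Among annotated long non-coding genes, 0.441% had a peak in both MBD5 libraries and 0.688% in both MBD6 libraries, and Malat1 was among both. Long non-coding genes with more peaks than Malat1 numbered 4 in each MBD5 library (Gas5, Snhg1, Rian and Gm26668) and 0 and 1 (Gm26624) in the MBD6 libraries, the Gm genes being named after their values were seen. Summit reads were higher in 2 such genes in each MBD5 library and in 0 in the MBD6 libraries. These 2 were Gm26917, named after its values were seen, and Rmrp, the RNA of RNase MRP.

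A list of 34 other long non-coding and small nuclear RNAs, 33 of them annotated, gave 22 with a peak in any library, 17 in both MBD5 and 21 in both MBD6 libraries. Xist had no peak, and Tsix, its antisense RNA, had 0, 0, 1 and 1. Of the 17 with a peak in all 4 libraries, 12 had the same number of peaks in each, such as Gas5, a host of small nucleolar RNAs, with 7, 7, 7 and 7. The share of equal counts over all genes was not computed. Some of the 12 are short, such as Rmrp (0.281 kb) and Rpph1 (0.319 kb) with 1 peak in each library. Gas5 spans 4.12 kb and Malat1 6.98 kb, and the part of length in equal counts was not tested. Malat1 differed from the 12 with 4, 4, 10 and 9, but it was not alone. Meg3 (2, 2, 3 and 4), Firre (1, 1, 3 and 5) and Snhg12 (3, 3, 4 and 5) also had more for MBD6. Rian (5, 5, 6 and 4) and Dancr (2, 1, 2 and 2) did not have more in both MBD6 libraries. By the highest summit, MBD6 over MBD5 per depth was 0.911 for Malat1, behind Meg3 (1.43) and Firre (1.31) and ahead of the other 15. The median of the 17 was 0.671 and the lowest was 0.507, for Snhg1. Rpph1, the RNA of RNase P, had 141, 146, 162 and 177 reads at its single peak and a ratio of 0.552.

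**Figure D5:**
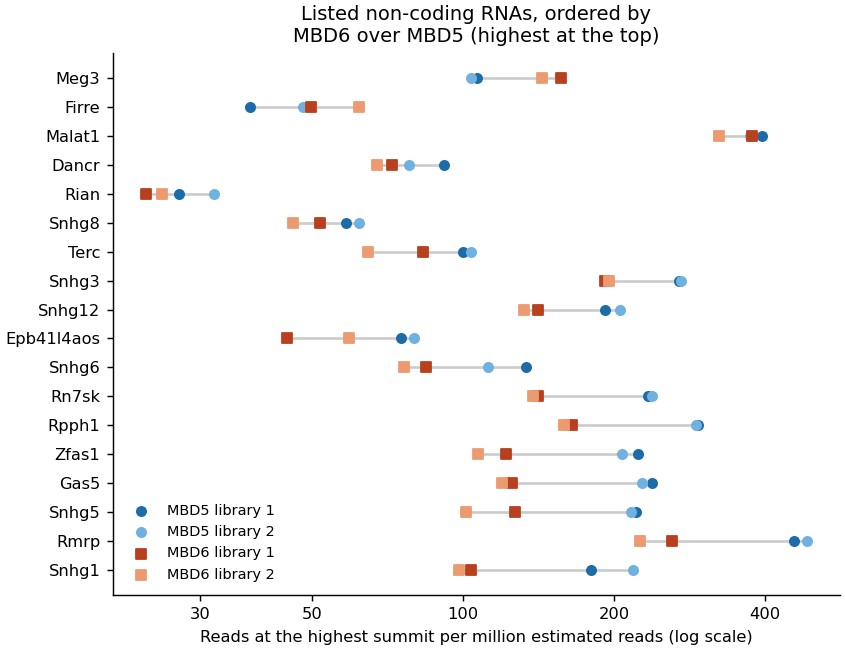
Reads at the highest summit in RPM (x axis, log scale) for Malat1 and the 17 listed non-coding RNAs with a peak in every library, ordered by the ratio of MBD6 to MBD5 with the highest at the top (circles MBD5, squares MBD6, grey lines the range). Malat1 stands below Meg3 and Firre, at 324 to 395 RPM.

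Among 22 genes for speckle, paraspeckle and 3′ end processing proteins, 20 had a peak in any library, 16 in both MBD5, 18 in both MBD6 and 16 in all 4. Over all annotated protein-coding genes, expressed or not, these shares were 19.4%, 8.13%, 14.2% and 7.81%. Srrm2, a core speckle protein, had 15, 14, 17 and 14 peaks, and Son, its partner, had 4, 3, 5 and 5. Pspc1, a paraspeckle protein, had 3, 3, 4 and 3. The 5 genes nearest Malat1 in peak counts, by distance in log2(peaks + 1), were Smc2 (0.205), Setd2 and Zfp638 (0.297 each), Anln (0.327) and Rbm26 (0.350). Each is protein coding and spans 49.0 to 122 kb, against 6.98 kb for Malat1.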

How the data were processed

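CLIP–seq was made by the study from Flag-MBD5 and Flag-MBD6 mES cells, 2 libraries each. Per the methods, the authors trimmed and collapsed identical reads, kept those longer than 15 nt, removed rRNA reads, mapped to mm10 with Bowtie 1.0.0 (up to 10 placements, 1 kept), split strands with SAMtools 1.16.1 and called peaks per library and strand with MACS2 (at most 5 reads per position, reads extended to 150 bp, q under 0.01). The deposited peak lists hold a score per peak, which was not used, the deposited fold enrichment (a ratio of summit to background reads), and −log10 of p and q as the authors' peak caller gave them.

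From fold and −log10 p, the whole number of summit reads and the background rate were solved for every peak (100% in each library, relative tolerance 2e-05), after a test on simulated data. Estimated depth was the lowest rate scaled by the 1.3e+08 bp genome size the authors set. Peaks were placed by midpoint on the same strand of GENCODE mouse release 21, and sequences were read from its transcripts. A region was a set of merged peaks with a member in each library of that protein, and an overlap of 1 bp was enough. Chi-square values for library pairs used sites where each library of the opposite protein held at least 60 reads. Ratio intervals (95%, exact binomial) and Poisson intervals used rounded mean reads and cover counting error only. Controls were decoded in windows of 150, 1000 or 10000 bp. The alternatives tried were stricter q and fold, other ways to place a peak, equal peak numbers, other overlaps and depths, and leaving out each library. Members and gene lists were chosen with earlier results of these data known. The rule for named genes took the members, the 5 nearest in peak counts and the fixed lists. Gm26624, Gm26668 and Gm26917 were named after their values were seen. Analyses used Python 3.11.15, numpy 2.4.6, pandas 2.3.3, scipy 1.17.1 and matplotlib 3.10.9.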

Additional observations from a re-analysis of the deposited data

How the results depend on the processing

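Of 56 values recomputed under other settings, 51 stayed within 1.5 times the value reported and 5 did not. For the ratio the limit was its counting interval. Some values could not move, such as those for both strands, because no peak lay on the opposite strand. Falls from 9 to 6 MBD6 regions and from 3 to 2 overlapped regions counted as within the limit. The mean number of Neat1 peaks for MBD6 was 1 as reported, 0.5 with q under 0.0001, 0.5 with fold enrichment of at least 4 and 0 with the 5362 strongest peaks of each library. Malat1 MBD6 regions overlapped by an MBD5 region rose from 3 to 5 when a peak of either MBD5 library was enough. The median ratio at shared Malat1 sites rose from 0.964 to 1.22 when depth was taken from the sites in all 4 libraries, since that scaling sets their typical ratio near 1. With equal peak numbers Malat1 had 4 MBD5 peaks, a mean of 7.5 MBD6 peaks and 6 MBD6 regions, 3 of them overlapped by an MBD5 region.

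Leaving out each library in turn gave 32 values, all within those limits. Several of these could not move, namely the peak and region counts of the protein whose libraries were both kept. For the protein with 1 library left, a region needed a peak in that library only. Its regions could therefore stay or become more, but not fewer. Malat1 MBD5 regions ranged from 3 to 4 and MBD6 regions from 9 to 10, mean MBD6 peaks from 9 to 10, overlapped regions from 3 to 4 and the ratio from 0.918 to 1.01. No paired analysis was possible because the results come from no test. At Neat1 the reads expected for MBD5 at equal RPM were below those needed for a peak. At the 13 missing Malat1 peaks expected reads were above those needed. In both cases RPM came only from libraries with a peak, which can set the expected reads too high. The cause of the missing peaks was not tested.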
